A study of Mus musculus with 4 samples.

Results

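The genes described here encode proteins that bind along microtubules, the hollow tubulin filaments that shape axons and dendrites. There are 9 of them: Mapt, Map2, Map1a, Map1b, Map4 and Map6 among the microtubule-associated proteins, and Dcx, Dclk1 and Dclk2 of the doublecortin family. Every probe set whose only gene symbol in the platform annotation, or an older alias of it, was one of these was read, which gave 36 probe sets of the 45037 that measured transcripts. A probe set is the group of short oligonucleotides from which an Affymetrix array computes 1 signal, and a gene can have several that lie in different parts of its transcripts.

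The arrays held RNA of primary cerebral cortex cultures from C57BL6 mice: 2 arrays of neurons from fetuses of embryonic day 16 and 2 of astrocytes from newborns. By the series description neurons were kept 7 days in culture and astrocytes 20 days, whereas the protocol text states a single period of about a week for all assays, which differs from that of the astrocytes. Both cell types were plated with 10% serum and 33 mM glucose, and neurons were moved after plating to 1% serum and 19.4 mM glucose with hormones and other supplements. No other treatment or genetic change is named. Cell type, donor age, medium and time in culture change together and cannot be told apart. Titles call the 2 arrays of a group biological replicates, and whether each came from its own preparation is not given, so the p-values measure the spread between these arrays.

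Microtubule-associated proteins bind the outside of the tubulin lattice, where they stabilise it, space filaments in bundles and alter the access of motors. In neurons MAP2 is known for its place in dendrites and cell bodies and tau for its place in axons, MAP1B marks growing axons, and MAP4 is the relative made in most other cell types. Doublecortin is a protein of migrating and young neurons, and the doublecortin-like kinases join the same tubulin-binding domains to a protein kinase domain. Dclk1 is transcribed from more than 1 start and spliced into products that hold the doublecortin domains, the kinase domain or both.

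Map4 and Dclk1 were the members whose probe sets changed in opposite directions, and both have a pair of starts in the RefSeq promoter table (GRCm38.p6), 120 kb apart for Map4 and 219 kb apart for Dclk1. The bases just before these starts are shown 5′ to 3′ so that the alternative starts can be compared, with each CG dinucleotide in capitals; 250 bases are given, fewer for the upstream Dclk1 start, where the stretch ends before the gene's first annotated base. The other stretches lie within the annotated gene.
Map4, upstream start, chr9:109931524-109931773, plus strand: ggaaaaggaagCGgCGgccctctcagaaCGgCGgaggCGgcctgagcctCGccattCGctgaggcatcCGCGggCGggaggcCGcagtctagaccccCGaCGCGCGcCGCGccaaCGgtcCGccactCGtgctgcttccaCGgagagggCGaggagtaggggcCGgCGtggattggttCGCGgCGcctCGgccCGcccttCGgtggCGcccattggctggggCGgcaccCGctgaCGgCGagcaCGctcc
Map4, downstream start, chr9:110051771-110052020, plus strand: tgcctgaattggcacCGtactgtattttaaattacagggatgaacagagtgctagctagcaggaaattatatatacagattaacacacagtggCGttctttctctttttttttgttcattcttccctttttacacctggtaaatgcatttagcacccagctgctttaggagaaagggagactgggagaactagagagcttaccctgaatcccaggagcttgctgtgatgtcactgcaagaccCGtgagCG
Dclk1, upstream start, chr3:55242114-55242302, plus strand: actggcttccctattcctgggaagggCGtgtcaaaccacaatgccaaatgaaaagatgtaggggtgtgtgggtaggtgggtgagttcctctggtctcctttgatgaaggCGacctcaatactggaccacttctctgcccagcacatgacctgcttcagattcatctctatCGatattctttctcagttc
Dclk1, downstream start, chr3:55461478-55461727, plus strand: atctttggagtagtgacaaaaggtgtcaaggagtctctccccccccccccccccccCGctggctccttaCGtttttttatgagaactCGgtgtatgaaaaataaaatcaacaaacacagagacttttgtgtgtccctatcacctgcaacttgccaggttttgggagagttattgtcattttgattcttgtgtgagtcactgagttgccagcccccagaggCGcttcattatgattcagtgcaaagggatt

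The upstream Map4 start lay in CG-rich sequence and its downstream start did not. The 300-base RefSeq window around the upstream start (250 bases before, 50 after) held 42 CG, more than 97.0% of the 32851 windows in the table had, and the window around the downstream start held 5, against a median of 7. Both Dclk1 windows were a little below that median, with 5 and 6. Of the other members, both Dcx windows held 3, the Map1b window 23, the Map1a and Dclk2 windows 27 each and the Map2 window 37. The table held 10 windows of 7 members. Dcx also had a pair of annotated starts, and none of its probe sets was higher in astrocytes. The Dcx starts, chrX:143933124 and chrX:143933219, lay so close together that their windows overlapped. This pair is therefore not comparable to the widely spaced starts of Map4 and Dclk1. Which start gave rise to the transcript that a probe set reads was not tested, since the positions of the probe sets were not used here.

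Most probe sets of these genes were higher in neurons, and a smaller number, all from Map4 and Dclk1, were higher in astrocytes. Of the 36 probe sets, 33 were bright enough to be tested; 24 were called higher in neurons, 7 were called higher in astrocytes and 2 had no call (limma, Benjamini-Hochberg adjusted p below 0.05 over all tested probe sets). Over the 25019 probe sets tested, 29.4% were called higher in neurons and 27.7% higher in astrocytes. The groups did not overlap in 32 of the 33 tested, and in 78.3% of all tested probe sets. The median log2 fold change (neurons minus astrocytes) was 1.62 over the 33 and 0.04 over all tested probe sets. With the untested ones included, it was 1.48 over the 36. Since 10 of the 33 passed the brightness filter through the neuron arrays alone, and 0 through the astrocyte arrays alone, the fit was also run with no filter. It called 22 of the 36 higher in neurons and 4 higher in astrocytes, where 15.3% and 13.7% of all 45037 were called. With any 1 array left out, 1 group holds only 1 array, and fewer member probe sets were called in either direction. Fewer were also called over all probe sets. Among the members a larger part of the calls in astrocytes was lost than of those in neurons.

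**Figure D1:**
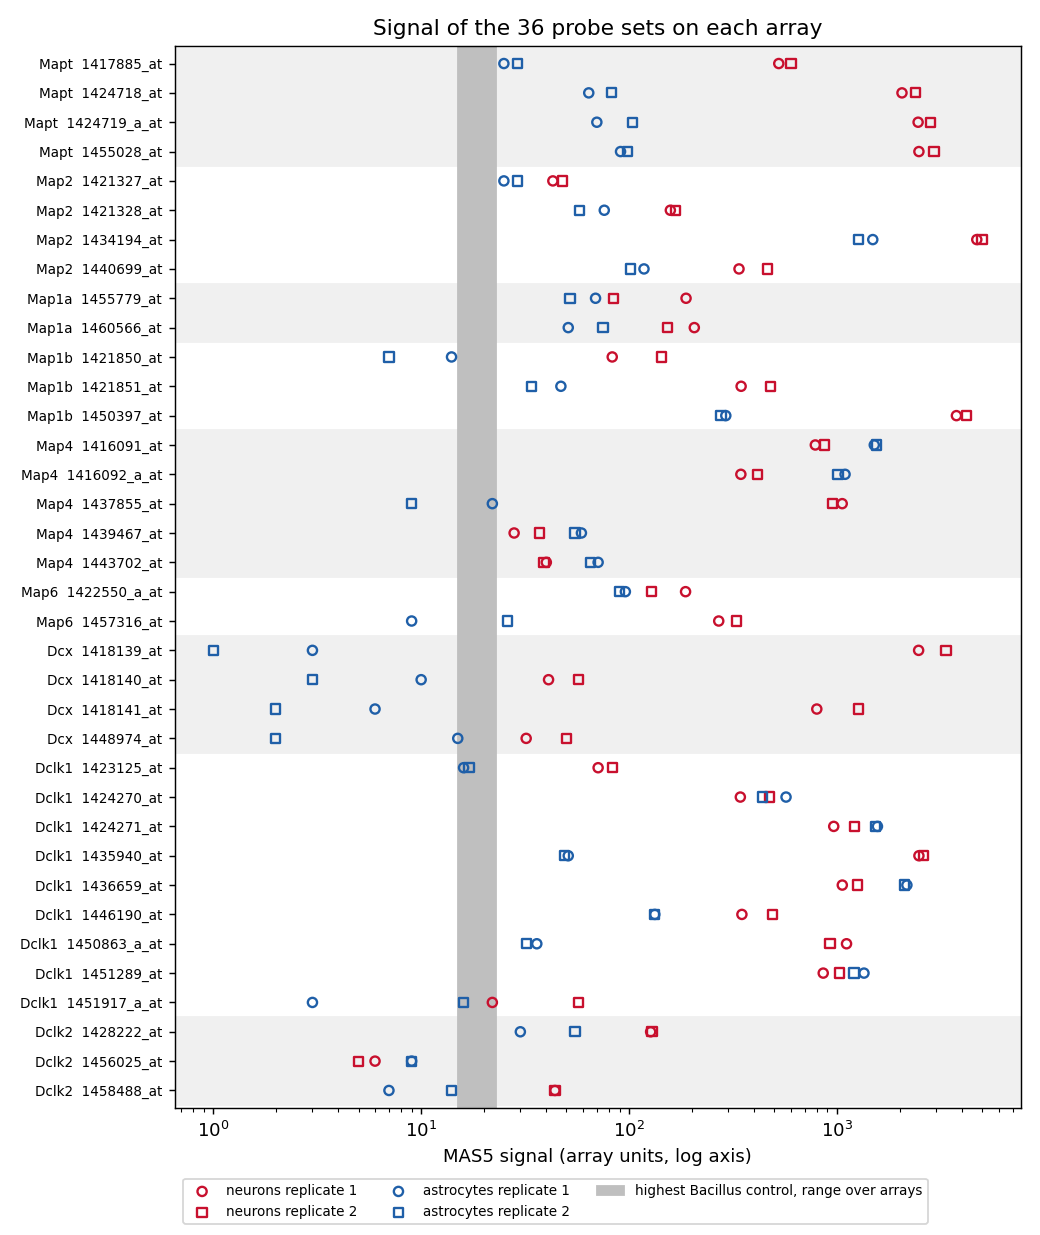
MAS5 signal (array units, log axis) of each of the 36 probe sets on each array; red symbols are neurons, blue symbols astrocytes, circles replicate 1 and squares replicate 2. The grey band spans the highest Bacillus subtilis control on the 4 arrays, 15 to 23; the red symbols lie to the right of the blue ones for Mapt, Map2, Map1a, Map1b, Map6 and Dcx, and on both sides of them for Map4 and Dclk1.

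**Figure D2:**
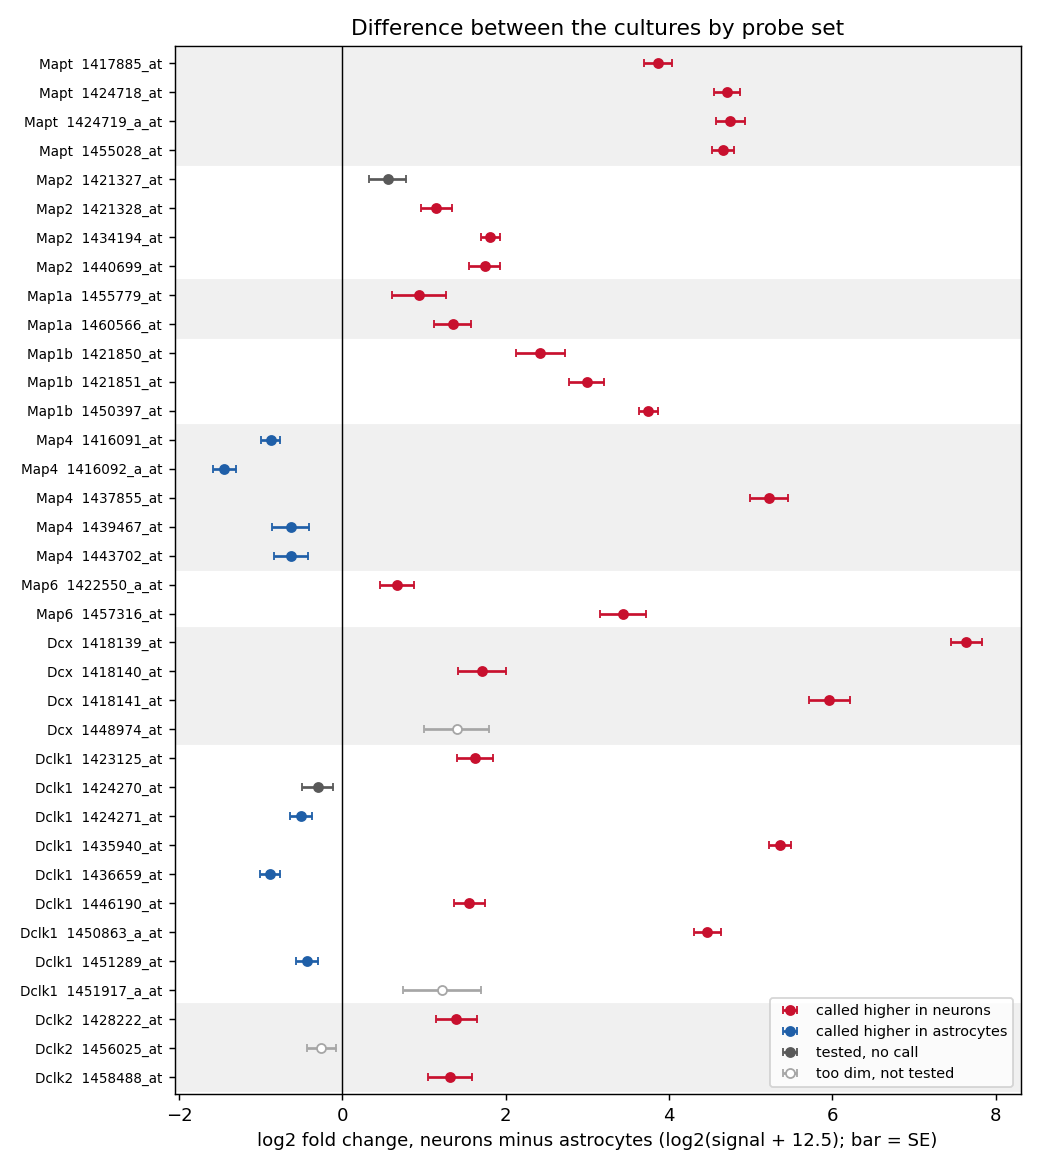
Log2 fold change (neurons minus astrocytes) of each probe set with its standard error, from limma on 2 arrays per group. Red points were called higher in neurons (24), blue points higher in astrocytes (7), filled grey points were tested without a call (2) and open points were too dim to be tested (3).

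Marker genes matched the labels of the cultures and also showed other cells in them. All 7 neuron markers were higher in neurons, with summed signals of 19466 and 21141 there against 1600 and 1635 in astrocytes, where Stmn2 alone gave 1465 and 1485; Tubb3, the neuronal beta-tubulin, had a log2 fold change of 5.25. Of 7 astrocyte markers 6 were higher in astrocytes (summed signals 14838 and 15037 against 4015 and 4435), among them Gfap, the astrocyte intermediate filament, at -5.53; its neuron signals were 2 and 109, and it was not called with either astrocyte array left out. Of 6 measured oligodendrocyte lineage markers of 8 fixed, 4 were higher in neurons, including Pdgfra (5.27), 1 was higher in astrocytes and Olig2 had no call (0.22, adjusted p = 0.214); their summed signals were 4413 and 5322 in neurons and 4200 and 4597 in astrocytes. Of 4 measured markers of dividing cells 3 were higher in neurons, including Mki67 (3.84). The 4 measured progenitor markers divided into 3 higher in astrocytes and 1 higher in neurons. Microglial markers were higher in astrocytes in 4 of 5 measured (summed signals 751 and 755 against 98 and 160, with Aif1 too dim to be tested), and fibroblast markers in 3 of 5, including Col1a1 (-1.05; not called with no filter or without any 1 array but astrocytes replicate 1), while Lum was called higher in neurons (0.76, adjusted p = 0.0259) and Dcn had no call (0.37). Of 4 endothelial markers, 3 including Pecam1 were too dim. The part of these cells in the members' signals was not tested, and more cells of a type cannot be told apart from more RNA per cell in such cultures.

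Tau, the axonal microtubule-associated protein encoded by Mapt, was far higher in neurons by each of its 4 probe sets, of which 1424718_at and 1424719_a_at share a source sequence. Probe set 1455028_at read 2479 and 2928 in neurons against 91 and 98 in astrocytes (2704 ± 317 against 94.5 ± 4.95; mean ± SD, n = 2 here and below). The groups were far apart, a 25.3-fold difference (log2 fold change 4.66 ± 0.14, SE; limma adjusted p = 1.37e-07). The folds printed here are on the log2(signal + 12.5) scale, which understates changes of dim probe sets. Probe set 1424719_a_at read 2457 and 2811 against 70 and 104, and 1424718_at read 2055 and 2377 against 64 and 82. The remaining 1417885_at read 525 and 601 in neurons and 25 and 29 in astrocytes. Its log2 fold change of 3.86 differed from those of the others by -0.80 to -0.89 (adjusted p from 0.0175 to 0.0187 over all probe set pairs), while the others, at 4.66 to 4.75, did not differ detectably from one another.

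Map2, whose protein is a classical marker of dendrites, was higher in neurons by a smaller factor and kept a high signal in astrocytes. Probe set 1434194_at read 4706 and 4989 in neurons and 1487 and 1269 in astrocytes (4848 ± 200 against 1378 ± 154). That is a 3.50-fold difference (log2 1.81 ± 0.12 SE; adjusted p = 3.62e-06), with the astrocyte arrays well above the background of 15 to 17. Probe set 1440699_at showed nearly the same change, 338 and 463 against 118 and 102 (log2 1.74). Probe set 1421328_at read 158 and 168 against 76 and 58 (log2 1.15), and 1421327_at read 43 and 48 against 25 and 29 without a call (log2 0.55, adjusted p = 0.0678; called without the mean-variance trend, adjusted p = 0.0252). The annotation gives 1421327_at and 1421328_at the same source sequence. The change of 1421327_at differed from that of 1434194_at by -1.25 (adjusted p = 0.00338).

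The MAP1 proteins, a light and heavy chain pair cut from 1 precursor in each case, were also higher in neurons. Map1b, of growing axons, read 3756 and 4184 in neurons and 292 and 277 in astrocytes by 1450397_at, 13.4-fold higher (log2 3.74 ± 0.12 SE; adjusted p = 1.56e-07). Its probe set 1421851_at read 346 and 477 against 47 and 34 (log2 2.99). On 1421850_at the astrocyte arrays, at 14 and 7, were under background and the neuron arrays read 83 and 143, at least 6.82-fold higher. All 3 Map1b probe sets share a source sequence and are not independent readings. An "at least" fold sets the neuron signals against the array backgrounds, without the offset. Map1a, the relative of mature neurons, was called higher in neurons by both probe sets, with a wide spread between replicates. Probe set 1460566_at read 206 and 153 in neurons and 51 and 75 in astrocytes (2.55-fold; adjusted p = 0.00109), a call lost when neurons replicate 1 (adjusted p = 0.0568) or astrocytes replicate 1 (0.0501) was left out. Probe set 1455779_at read 188 and 84 against 69 and 52 (log2 0.94, adjusted p = 0.0368). Without neurons replicate 1 its log2 fold change was 0.41 (adjusted p = 0.249), and it was also not called with either astrocyte array left out, with no filter, without the mean-variance trend or after quantile normalization.

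Map6, also called STOP, whose protein protects microtubules from cold and from drugs, had 2 probe sets that disagreed in size. Probe set 1457316_at read 270 and 330 in neurons and 9 and 26 in astrocytes, 10.8-fold higher (log2 3.43 ± 0.29 SE; adjusted p = 1.59e-05). Probe set 1422550_a_at read 187 and 128 against 96 and 90, 1.59-fold higher (log2 0.67; adjusted p = 0.0244), and was not called without neurons replicate 1 (log2 0.41, adjusted p = 0.126), without either astrocyte array or with no filter. The log2 fold changes differed by 2.77 ± 0.38 (SE; adjusted p = 0.00161), so the size of the Map6 difference depends on which probe set is read.

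Map4, the widely expressed relative of tau and Map2 with a similar microtubule-binding region, was the member with the widest disagreement. Probe set 1416091_at read 787 and 871 in neurons and 1512 and 1552 in astrocytes, 1.84-fold higher in astrocytes (log2 -0.88 ± 0.12 SE; adjusted p = 0.000245). Probe set 1416092_a_at, which by its name matches several transcripts of the gene, read 345 and 415 against 1094 and 1011, 2.72-fold higher in astrocytes (log2 -1.44; adjusted p = 3.53e-05). Both groups were tight and did not overlap on these probe sets. Probe set 1437855_at went the other way, with 1060 and 953 in neurons and 22 and 9 in astrocytes, 37.4-fold higher in neurons (log2 5.22 ± 0.23 SE; adjusted p = 5.94e-07). Its astrocyte signal was just above background on replicate 1 and under it on replicate 2. The change of 1437855_at exceeded that of 1416092_a_at by 6.67 ± 0.25 log2 units (SE; adjusted p = 3.73e-06) and that of 1416091_at minus that of 1437855_at was -6.10 (adjusted p = 5.93e-06). The remaining pair was dim: 1439467_at read 28 and 37 against 59 and 55, and 1443702_at read 40 and 39 against 71 and 65. Both were called higher in astrocytes (log2 -0.63 each; adjusted p = 0.0410 and 0.0295). Neither was called with any 1 array left out or with no filter (adjusted p = 0.0992 and 0.0673).

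Dcx, the doublecortin of migrating neurons, had the largest log2 fold change of the members when each was read at its tested probe set with the highest mean; averaged over all probe sets of a gene, Mapt (4.50) was above Dcx (4.18). Probe set 1418139_at read 2471 and 3350 in neurons and 3 and 1 in astrocytes, both under background, at least 180-fold higher (adjusted p = 1.10e-07). Probe set 1418141_at read 800 and 1273 against 6 and 2, at least 63.2-fold higher (adjusted p = 4.62e-07). On both probe sets neurons replicate 2 was the higher of the neuron arrays. The other two were dim on every array: 1418140_at read 41 and 57 against 10 and 3 (at least 3.03-fold; adjusted p = 0.00123, and 0.0516 without neurons replicate 2). Probe set 1448974_at read 32 and 50 against 15 and 2, at least 2.50-fold higher, and was too dim to be tested (adjusted p = 0.0589 with no filter). All 4 had both neuron arrays above and both astrocyte arrays at or under background.

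Dclk1, the doublecortin-like kinase whose products differ in their domains, had 9 probe sets that formed groups of opposite direction. Probe set 1435940_at read 2479 and 2616 in neurons and 51 and 49 in astrocytes, 41.0-fold higher in neurons (log2 5.36 ± 0.13 SE; adjusted p = 1.10e-07). Probe set 1450863_a_at read 1112 and 927 against 36 and 32, 22.1-fold higher (log2 4.47; adjusted p = 2.45e-07). On both, the astrocyte arrays lay far below the neuron arrays and still above background. Smaller excesses in neurons were read by 1446190_at, at 349 and 490 against 133 and 132 (2.94-fold), and by 1423125_at, at 71 and 83 against 16 and 17 (3.08-fold). The 9th, 1451917_a_at, read 22 and 57 against 3 and 16 and was too dim to be tested.

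The other 4 Dclk1 probe sets were well above background in both cultures; 3 were called higher in astrocytes and 1 had no call. Probe set 1436659_at read 1061 and 1251 in neurons and 2170 and 2110 in astrocytes, 1.85-fold higher in astrocytes (log2 -0.89 ± 0.12 SE; adjusted p = 0.000297). Probe set 1424271_at read 965 and 1217 against 1566 and 1529 (log2 -0.51; adjusted p = 0.0114), and 1451289_at read 859 and 1028 against 1349 and 1209 (log2 -0.44; adjusted p = 0.0206). For 1424270_at the arrays overlapped, with 343 and 472 in neurons and 569 and 439 in astrocytes (log2 -0.30; adjusted p = 0.204), and the log2 fold change was -0.08 without neurons replicate 1. The platform annotation gives 1424270_at, 1424271_at and 1451289_at the same source sequence, and 1423125_at and 1450863_a_at another, so these are not independent readings. Of the probe sets called higher in astrocytes, 1436659_at kept its call with each array left out. The call of 1424271_at was lost without neurons replicate 1 (log2 -0.34) or either astrocyte array. That of 1451289_at was lost without any 1 of the 4 (log2 -0.31 to -0.57). With all 4 arrays, 1451289_at was also not called with no filter (limma adjusted p = 0.0638) or without the mean-variance trend (limma adjusted p = 0.0713). The change of 1435940_at exceeded that of 1436659_at by 6.24 ± 0.15 log2 units (SE; adjusted p = 4.76e-07).

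Dclk2, the second doublecortin-like kinase, was dim and higher in neurons. Probe set 1428222_at read 127 and 129 in neurons and 30 and 55 in astrocytes (2.62-fold; adjusted p = 0.00151). Probe set 1458488_at read 44 on both neuron arrays and 7 and 14 in astrocytes, under background there, at least 2.76-fold higher (adjusted p = 0.00297). Both lost the call with either neuron array left out (adjusted p from 0.0535 to 0.0697). The third, 1456025_at, was under background on all 4 arrays.

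**Figure D3:**
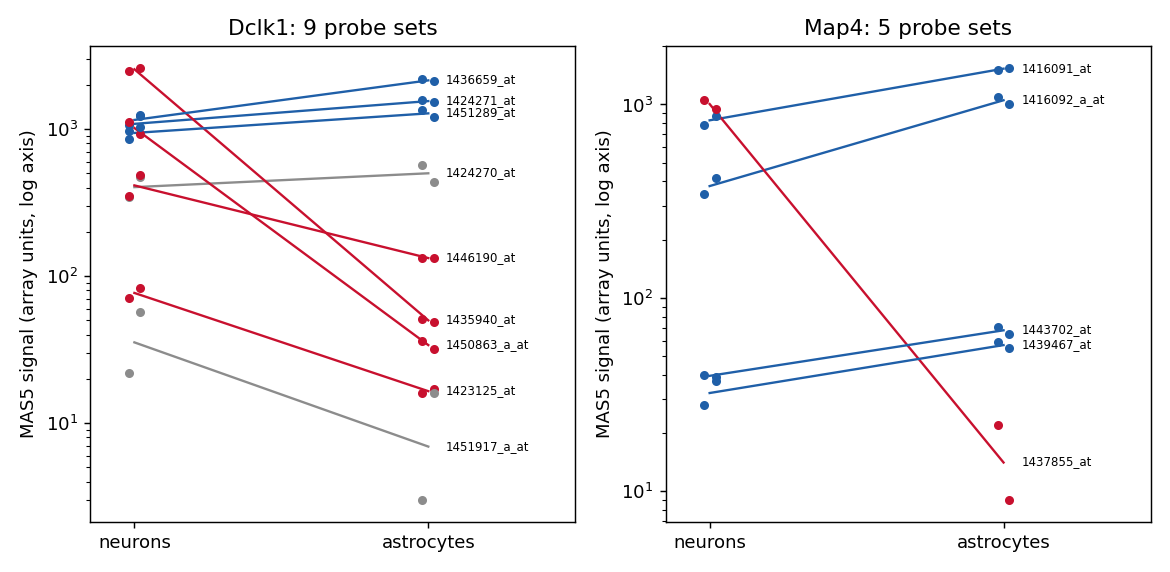
MAS5 signal (array units, log axis) of the probe sets of Dclk1 (left) and Map4 (right); points are single arrays and each line joins the geometric means of the neuron and astrocyte arrays. Red lines were called higher in neurons, blue lines higher in astrocytes and grey lines had no call or were not tested; lines of both directions cross in each gene, as for 1435940_at (2479 and 2616 in neurons, 51 and 49 in astrocytes) and 1436659_at.

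Unequal change within a gene was tested over all genes by fitting limma to the difference of the log2 values of each 2 tested probe sets. Of the 59 such pairs among the members, 42 differed, against 22.5% of the 15491 pairs of all genes. The pairs of a gene share probe sets and are not independent. Dclk1 held 23 of these 42 (of 28 pairs), Map4 7 of 10, Mapt 3 of 6, Map2 3 of 6, Dcx 3 of 3, Map1b 2 of 3 and Map6 its only pair. The only pair of Map1a (difference 0.41 ± 0.35, SE; adjusted p = 0.454) and that of Dclk2 (0.08 ± 0.31, SE; adjusted p = 0.890) were not called. The offset shrinks the folds of dim probe sets, so a dim and a bright probe set can differ through it. With the smaller offset 32 member pairs and 2788 of all pairs differed, and with the larger one 45 and 4820. Both Map4 and Dclk1 had probe sets called in opposite directions, as had 3.18% of the 5559 genes with at least 2 tested probe sets. Over the 2275 genes with at least 3 tested probe sets, the range of log2 fold changes within a gene had a median of 0.77. In order of that range Map4 (6.67) was number 2 and Dclk1 (6.24) number 3, while Map1b (1.32), Map2 (1.25) and Mapt (0.89) were nearer to the median. All tested Dcx probe sets were under background on both astrocyte arrays, so their fitted folds are not exact, and the range and the 3 unequal pairs of Dcx do not show unequal change within the gene. These Dcx pairs remain in the count of 42. The same limit holds for pairs with 1421850_at of Map1b or 1458488_at of Dclk2. For 1437855_at of Map4, 1457316_at of Map6 and 1423125_at of Dclk1 an astrocyte array was under background. The sizes of the differences in their pairs are therefore not exact either.

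A single value per gene therefore hides these differences for Map4 and Dclk1. Read at the tested probe set with the highest mean, Map4 had a log2 fold change of -0.88 and Dclk1 of -0.89, both higher in astrocytes. When all probe sets of the gene were averaged, Dclk1 was at 1.34 (adjusted p = 3.86e-05), higher in neurons, and Map4 at 0.33 without a call (adjusted p = 0.0672). The direction of the other 7 members was the same both ways. Their log2 fold changes by the brightest probe set were 7.64 for Dcx, 4.66 for Mapt, 3.74 for Map1b, 3.43 for Map6, 1.81 for Map2, 1.39 for Dclk2 and 1.35 for Map1a; averaged they were 4.18, 4.50, 3.05, 2.05, 1.31, 0.82 and 1.15.

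The genes whose 4 log2 values, each less its mean, lay closest to a member were found over the 12040 genes with a tested probe set, as a description over 4 arrays. Closest to Dcx were Syt4, a synaptotagmin, Myt1l, a neuronal zinc finger factor, and Tenm2, a teneurin. Like Dcx, all of them were under background on both astrocyte arrays, so their folds have no exact value and their order of nearness is not resolved. Closest to Mapt were Hecw1 and Bcl11a (4.63 and 4.74), along with Epha3, which was under background in astrocytes. Closest to Map2 were Tspan2, Mycbp2 and Fat4 (1.82, 1.80 and 1.84), and closest to the Map4 probe set 1416091_at were Golga5, Cox17 and Rxylt1 (-0.87 each). With 2 groups of 2 arrays such nearness is mainly a matter of a similar fold change.

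Other genes of microtubule regulation were mostly higher in neurons. In 4 lists with 84 genes, 73 were tested, of which 52 were called higher in neurons, 6 higher in astrocytes and 15 had no call; 4 were too dim and 7 had no probe set of their own. Over the 12040 genes, each read at its tested probe set with the highest mean, 31.1% were called higher in neurons and 31.2% higher in astrocytes. The median log2 fold change was 0.97 over the lists and 0.02 over all genes. Some of these genes passed the brightness filter through the neuron arrays alone. With no filter 47 of the 84 were called higher in neurons and 6 higher in astrocytes. In that run 15.3% and 13.7% of all 45037 probe sets were called, a share of probe sets and not of genes. With 1 array left out fewer of the listed genes were called higher in neurons, and as many or fewer higher in astrocytes. Over all probe sets fewer were called in both directions.

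Among other structural and end-binding proteins 15 of 23 tested genes were higher in neurons, 3 were higher in astrocytes and 5 had no call (median log2 fold change 0.67). Tppp, which promotes tubulin polymerisation, had signals of 419 ± 96.9 in neurons and 12.5 ± 6.36 in astrocytes, at least 25.9-fold higher (adjusted p = 2.64e-06). Map7d2, a relative of the kinesin-1 cofactor MAP7, was 12.5-fold higher in neurons, and Camsap3, which binds microtubule minus ends, at least 13.6-fold. Mapre2, an end-binding protein with the highest mean of the list, was 3.59-fold higher (8939 ± 237 against 2481 ± 150). Map7d1 was 1.86-fold higher in astrocytes, Ckap5, a microtubule polymerase, 1.48-fold and Map1lc3b, a protein of autophagosomes, 1.39-fold. Ckap5 lost its call without neurons replicate 1 (adjusted p = 0.0535) or astrocytes replicate 1 (0.0655), and Map1lc3b with any 1 array but neurons replicate 1 left out (0.0789 to 0.0979). Without astrocytes replicate 1 a single gene of the list was called higher in astrocytes, and 2 were without neurons replicate 1 or astrocytes replicate 2.

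Of the doublecortin relatives and the partners of the LIS1 and reelin pathway, through which migrating neurons move their nuclei, 12 of 14 tested genes were higher in neurons, 1 was higher in astrocytes and 1 had no call (median 1.02). Dync1i1, an intermediate chain of cytoplasmic dynein, had signals of 1229 ± 150 in neurons and 11.5 ± 4.95 in astrocytes, at least 76.7-fold apart ( adjusted p = 1.98e-07). Reln, which encodes the secreted reelin, was 9.74-fold and its receptor gene Vldlr 7.28-fold higher. Nde1, a LIS1 and dynein partner with a role in dividing progenitors, was 2.64-fold higher in astrocytes (192 ± 15.6 against 65.5 ± 14.8; adjusted p = 0.000390). Ywhae, a 14-3-3 protein with the highest mean of the list, was 1.32-fold higher in neurons (adjusted p = 0.0161) and was not called with any 1 array left out, with no filter or without the mean-variance trend.

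Of the kinases and phosphatases that act on tau and its relatives, 16 of 22 tested genes were higher in neurons, 0 were higher in astrocytes and 6 had no call (median 1.21). Both activators of the tau kinase CDK5 led the list: Cdk5r1, which encodes p35, was 32.4-fold higher (2093 ± 117 against 54.5 ± 23.3; adjusted p = 5.89e-07), and Cdk5r2 at least 29.1-fold. Brsk2, a kinase of neuronal polarity, was 13.5-fold higher. Ppp2ca, the phosphatase catalytic subunit with the highest mean of the list, had no call (4682 ± 228 against 3937 ± 174; adjusted p = 0.0633).

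Among tubulin-modifying and severing enzymes 9 of 14 tested genes were higher in neurons, 2 were higher in astrocytes and 3 had no call (median 0.89). Vash2, a vasohibin that removes the terminal tyrosine of alpha-tubulin, was 8.19-fold higher in neurons, Agtpbp1, which shortens polyglutamate chains, 4.29-fold, the severing enzyme gene Spast 4.10-fold and the polyglutamylase subunit gene Ttll1, with the highest mean, 2.65-fold. Sirt2, a deacetylase of alpha-tubulin, was 2.43-fold higher in astrocytes (791 ± 80.6 against 317 ± 17.0; adjusted p = 6.71e-05). Katna1, the catalytic subunit of the severing enzyme katanin, was 2.26-fold higher there (303 ± 5.66 against 127 ± 2.83; adjusted p = 0.000202). Both kept their call with each array left out. For Pafah1b1, Clip1 and Atat1, picked out of the lists after their values were seen, 1 other probe set was called in the direction opposite to the one read here. Map7 had no call at the probe set read (0.13, adjusted p = 0.598), and 1 other of its probe sets was called higher in astrocytes.

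**Figure D4:**
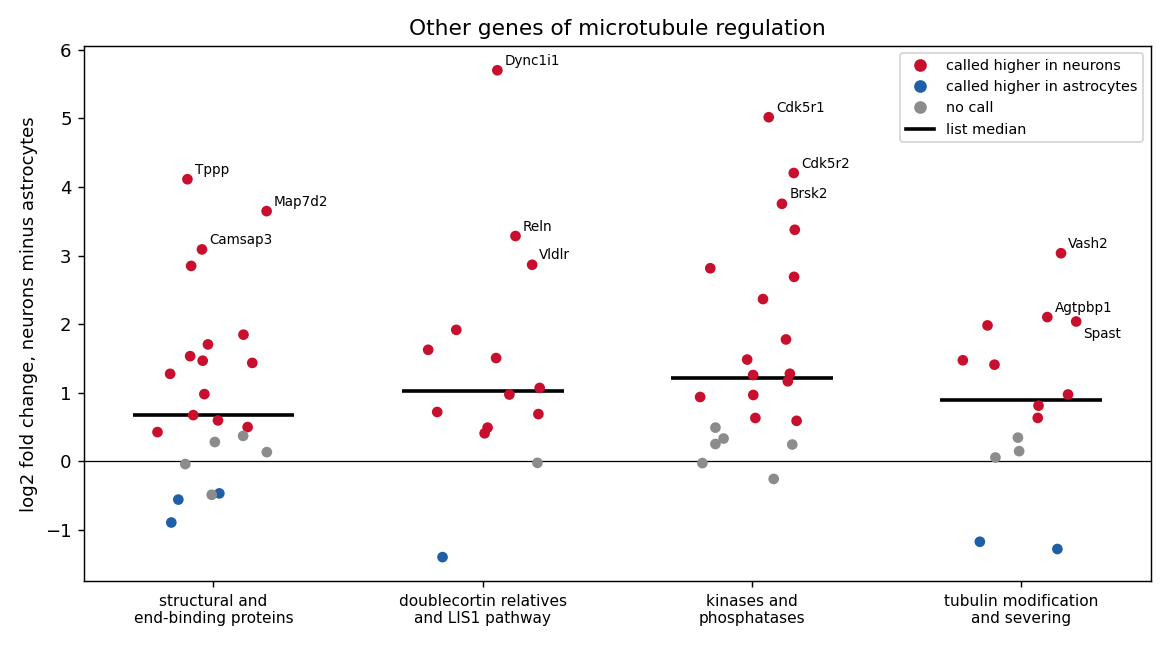
Log2 fold change (neurons minus astrocytes) of the 73 tested genes of 4 lists, each at its tested probe set with the highest mean; horizontal lines are list medians (0.67, 1.02, 1.21 and 0.89). Red genes were called higher in neurons (52), blue genes higher in astrocytes (6) and grey genes had no call (15); the names mark the 3 largest changes of each list.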

How the data were processed

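Per the labels' protocols, 50 ng of Trizol-extracted RNA went through 2 cycles of cDNA synthesis to give biotinylated cRNA. The authors deposited 1 linear intensity per probe set and array, from MAS5 by the submitters' processing notes (version not given in the sources used here). These are whole numbers with a mean, after trimming 2% at each end, of 149.997 to 150.002. The 64 control probe sets were left out. Values were used as log2(signal + 12.5), the offset being the median of the arrays' 25th percentiles. A probe set was tested where at least 2 of 4 arrays reached the array's median. The test was that of limma 3.58.1 (R 4.3.3; two-sided, eBayes with trend), adjusted over all tested probe sets; each variance had 2 residual degrees of freedom plus a prior of 6.27, so the number of arrays limits the precision. Background was the highest of 27 Bacillus subtilis controls on each array (21 and 23 in neurons, 17 and 15 in astrocytes); if both of a group's arrays did not exceed it, the fold is a lower bound against the mean of their log2 backgrounds. The pair fit used the same model, with its trend over the mean level of a pair. Symbols were updated by Entrez identifier for 34741 of 34945 probe sets with 1 symbol. In the simulated comparison of neurons with astrocytes over 25019 probe sets, 30% of 2-fold, 96.3% of 4-fold and 100% of 8-fold changes were recovered. Of unchanged probe sets 0.0363% were called. In the simulated pair fit over 15491 pairs, 92% of 4-fold unequal pairs were recovered. Changes were planted in a far smaller share of probe sets or pairs than was called in the data. The adjusted threshold was therefore stricter in the simulation, and these shares do not measure recovery in the data. The deviations of same-numbered arrays had a correlation of -0.09, so numbers were not taken to pair them. Named genes were all members, from each list the 3 largest changes in each direction and the gene with the highest mean, 8 markers, and the 3 genes closest to each of 4 members. Members, lists and background rule were chosen with earlier results of these data known. A smaller and a larger offset, no filter, a stricter filter, quantile normalization, no trend, a replicate block, other ways to read a gene and each array left out were tried.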

Additional observations from a re-analysis of the deposited data

How the results depend on the processing

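Of the 33 tested probe sets of the members, 22 kept direction and call status in every alternative run that tested them. Another 10 lost the call in at least 1 run and 1 (1421327_at of Map2) gained it, and 0 changed direction. Among the 22, 1424270_at of Dclk1 had no call in any run. Also among them, 1421850_at of Map1b and 1423125_at of Dclk1 missed the stricter filter. Averaging the probe sets of a gene reversed the sign for Dclk1 (log2 fold change 1.34 against -0.89) and Map4 (0.33 against -0.88), which follows from probe sets of opposite sign. Averaged, Dclk1 was called higher in neurons and Map4 had no call (limma adjusted p = 0.0672). The number of members called higher in astrocytes fell from 7 to 4 with no filter and to 3 or 4 with 1 array left out. The stricter filter at the 75th percentile, which tests fewer probe sets, left 4769 of all probe sets higher in neurons (7367 in the main analysis), 1244 unequal pairs and 24 unequal pairs of members; with no filter 5802 pairs were unequal. With 1 array left out, 4440 to 5272 of all probe sets were higher in astrocytes (6936 in the main analysis), and 2212 to 2564 pairs were unequal (3492). With the replicate number as a block (replicate block) 7303 probe sets were higher in neurons and 6886 in astrocytes. Of the member probe sets 24 and 6 were, with 1439467_at of Map4 losing its call (adjusted p = 0.0527). The larger offset gave the Dcx probe set 1418139_at a log2 fold change of 5.82 and the smaller one 9.16, against 7.64. Neither changed the call of a member probe set, while 45 member pairs were unequal with the larger offset and 32 with the smaller. Of 40 other named genes, 5 lost the call in at least 1 alternative and 0 changed direction.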
